A study of Mus musculus with 30 samples.

Results

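Expression of 10 genes of bone morphogenetic protein (BMP) signalling was followed through the small intestinal epithelium of mice: Id1, Id2, Id3, Smad6, Smad7, Smad4, Bmp2, Bmp8b, Bmpr1a and Bmpr2. They were taken by symbol and make up 10 of the 54146 genes in the deposited count table. All mice were female C57BL/6 (C57B6/J in the protocol), labelled WT, of 8 to 10 weeks, fed the semi-purified AIN93G diet, which lacks dietary agonists of the aryl hydrocarbon receptor (AHR), for 1 week. Vehicle mice received corn oil by gavage and ICZ mice 10 µg of indolo[3,2-b]carbazole (ICZ), a potent AHR agonist, in corn oil. The small intestine was taken 12 h later, and epithelial cells were released by sequential EDTA steps into 5 fractions, F1 to F5. There were 3 mice per treatment, and 29 libraries were used: 15 from vehicle mice and 14 from ICZ mice, since F1 of ICZ has 2 libraries here. The study asked how AHR activation alters expression along the axis from crypt to villus.

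BMP ligands such as BMP2 bind a pair of type I and type II serine-threonine kinase receptors, among them BMPR1A and BMPR2. The receptors phosphorylate SMAD1, SMAD5 and SMAD9, which enter the nucleus with the shared partner SMAD4. Id1, Id2 and Id3 are classical targets of these complexes and encode proteins that pair with E proteins and keep them off DNA. SMAD6 and SMAD7 are inhibitory SMADs that dampen the pathway and are induced by it. In the intestine BMP activity is known to be high towards the villus and to be held low at the crypt base by antagonists from the underlying stroma.

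Promoter sequences, 250 bases before to 50 bases after the RefSeq gene start (build GRCm38.p6), were matched for 6 of the 10 genes. RefSeq and GENCODE, the source of the gene coordinates given further on, place some starts differently. The RefSeq start lies 1048 bases (Id2), 325 (Id3), 795 (Bmpr1a) and 879 (Bmpr2) downstream of the GENCODE start, so that these 4 windows fall wholly inside the GENCODE gene, while the starts of Smad6 are the same and those of Bmp8b are 4 bases apart. The promoters of an Id gene that was high in late fractions (Id3), of the Id gene with the largest fitted difference between ICZ and vehicle mice (Id2), and of an inhibitory SMAD gene (Smad6) are shown 5′ to 3′. Capitals mark GGCGCC, a GC-rich element bound by SMAD1 and SMAD5, GTCTAGAC, the SMAD palindrome, and GCGTG, the core of the AHR-ARNT element. They lie at chr12:25096043-25096342 on the minus strand (Id2), chr4:136143572-136143871 on the plus strand (Id3) and chr9:64022010-64022309 on the minus strand (Smad6).
Id2: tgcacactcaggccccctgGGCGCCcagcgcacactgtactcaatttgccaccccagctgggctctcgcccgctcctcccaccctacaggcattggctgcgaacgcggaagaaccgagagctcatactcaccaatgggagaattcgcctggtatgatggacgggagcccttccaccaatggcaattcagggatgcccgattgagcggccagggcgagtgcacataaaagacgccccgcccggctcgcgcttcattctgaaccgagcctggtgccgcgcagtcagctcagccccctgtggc
Id3: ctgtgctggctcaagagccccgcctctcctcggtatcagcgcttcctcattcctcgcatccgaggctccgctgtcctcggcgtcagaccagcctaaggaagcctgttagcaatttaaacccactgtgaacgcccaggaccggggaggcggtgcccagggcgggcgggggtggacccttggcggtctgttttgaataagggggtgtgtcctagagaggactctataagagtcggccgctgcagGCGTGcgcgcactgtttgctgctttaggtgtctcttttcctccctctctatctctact
Smad6: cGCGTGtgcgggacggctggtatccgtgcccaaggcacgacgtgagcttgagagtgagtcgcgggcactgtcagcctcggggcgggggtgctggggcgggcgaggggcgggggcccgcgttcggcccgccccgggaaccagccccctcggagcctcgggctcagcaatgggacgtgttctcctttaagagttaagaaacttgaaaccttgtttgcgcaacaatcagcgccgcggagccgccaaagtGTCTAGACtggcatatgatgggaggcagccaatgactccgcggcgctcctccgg

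Both strands of these windows were searched. GGCGCC was found in Id2, with its first base 231 bases before the RefSeq start (position -231, and so for all positions here), in Bmpr1a (-198) and in Bmpr2 (-105), and 11.9% of 32851 mouse promoters of this length hold it. GCGTG was found in Id3 (-8) and Smad6 (-249), and in 32.4% of all promoters. The palindrome was found at -4 in Smad6 and in 0.213% of all promoters, and it was added to the search after the Smad6 sequence had been seen. CAGAC, the shorter SMAD element, had 2 matches in Id3 and 1 in Bmp8b, and 49.6% of all promoters hold it. A match describes the letters and is no measured binding site, and 4 of these windows need not be promoters of the GENCODE transcripts.

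The gene reads of a library lay between 4359673 and 7819837, with a median of 6351137, and 17801 to 20881 genes had a read. Levels are CPM (reads of a gene relative to all gene reads of its library) on TMM-scaled library sizes. The 15 absorptive enterocyte markers summed to between 15670 and 61530 CPM per library, so the defining markers of the labelled epithelium were abundant, and 13 of them fell from F1 to F5 in vehicle mice. Stem cell markers (6 of 8), proliferation genes (12 of 14) and Paneth cell markers (7 of 7) rose over the same span. Cyp1a1, the classical AHR target, had 0.129, 0.0337 and 0 CPM (3, 1 and 0 reads) in vehicle mice with F2 to F5 added and 75.04, 28.4 and 13.4 CPM (1702, 723 and 343 reads) in ICZ mice, without overlap. It was called higher with ICZ in F1 (edgeR adjusted p = 0.00486) and not in the sum (unadjusted p = 0.000479, adjusted p = 0.825). ICZ replicate 1 stood apart in F5, where 10 genes made up 54.3% of its reads (median over libraries 26.8%). In these bulk samples, fewer cells of a type and less RNA per cell cannot be told apart.

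Id1 and Id3 rose and Smad7 and Smad4 fell from the first to the last fraction of vehicle mice. Id1 and Id3 differed across the 5 fractions in edgeR's quasi-likelihood test, as did Smad7. Those were 3 of 9 tested genes, while 20.6% of all 13164 tested genes passed. In F5 against F1, 2 of 9 were higher, with 14.9% of all genes higher, and 2 of 9 were lower, with 13.2% of all genes lower. The shares among these 9 genes are not far from the background. Across fractions the adjusted p was 0.183 for Smad4, 0.259 for Bmp2, 0.343 for Bmpr1a, 0.418 for Smad6 and 0.458 for Bmpr2. Bmp8b had too few reads to be tested here.

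Id1 (chr2:152736251-152737410, GRCm38, plus strand) was at 113, 168 and 213 CPM in F1 of vehicle replicates 1, 2 and 3, and at 219, 273 and 299 CPM in F5. All 3 mice were higher in F5, and the groups did not overlap. In F2 the 3 mice had 87.0, 127 and 162 CPM, the lowest level of each mouse. The means ran 165 ± 50.2, 125 ± 37.7, 139 ± 30.5, 214 ± 58.2 and 264 ± 41.2 CPM from F1 to F5 (SD, n = 3). Id1 thus dipped in F2 and climbed from F3 to F5 in each mouse, while neighbouring fractions overlapped between mice. The 4 fraction terms together passed in edgeR's test (adjusted p = 1.738e-05), and the F5 against F1 difference was 0.72 ± 0.12 on the log2 scale (SE, adjusted p = 0.000278). Without the mouse as a block both calls were lost: edgeR's adjusted p across fractions was 0.0616, and the F5 against F1 difference was 0.69 (adjusted p = 0.0887).

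Id3 (chr4:136143497-136145755, plus strand) had 70.5, 99.7 and 110 CPM in F1 of the vehicle mice and 121, 163 and 125 CPM in F5. Every F5 value exceeded every F1 value. The step was sharpest between F3, at 79.3, 71.9 and 60.1 CPM, and F4, at 91.6, 167 and 123 CPM, which did not overlap. Id3 rose by 0.56 ± 0.17 on the log2 scale (SE, edgeR adjusted p = 0.019), and its test across fractions gave an adjusted p of 0.0023. The F5 against F1 call was lost without the mouse as a block (adjusted p = 0.0652) and without vehicle replicate 2 (0.44, adjusted p = 0.193). The call across fractions was also lost without replicate 2 (adjusted p = 0.165).

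Id2 (chr12:25093799-25097140, minus strand) followed another course. In F4 the vehicle mice had 286, 429 and 463 CPM, the highest level of each mouse, against 178, 297 and 376 CPM in F1 and 284, 303 and 320 CPM in F5. Each mouse thus peaked in F4, and replicate 1 lay below the other vehicle mice in every fraction. F5 differed from F1 by 0.19 ± 0.16 on the log2 scale (SE, edgeR adjusted p = 0.414), whereas F4 against F1 gave 0.48 (adjusted p = 0.0362). Across fractions its adjusted p was 0.0904, and it was 0.0199 without vehicle replicate 1 and 0.00554 with no filter on low counts.

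Genes of early response and dissociation stress moved with Id1 and Id3. Of 17 listed, 16 rose in F5 against F1 of vehicle mice, and their summed level was 1323 to 2127 CPM in F1 and 4002 to 6350 CPM in F5. In ICZ mice the sums were 1764 to 2070 CPM in F1 and 2155 to 4285 CPM in F5, and 9 of 17 rose. The genes most like Id1 over the 29 libraries were Fos (Pearson r 0.94 of log2 CPM), Junb (0.91) and Jun (0.91), all immediate early transcription factors, out of 8614 genes compared. Those most like Id3 were Zfp36l1 (0.88), Brd2 (0.88) and Cldn23 (0.87), and Id1 and Id3 correlated with each other at 0.84. The libraries share mice, and all of these values share each library. Fos rose by 1.64 ± 0.15 on the log2 scale in vehicle mice (SE, edgeR adjusted p = 2.274e-06). The part of this response in the Id1 and Id3 values was not tested, and fraction cannot be told apart from time in EDTA.

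**Figure D1:**
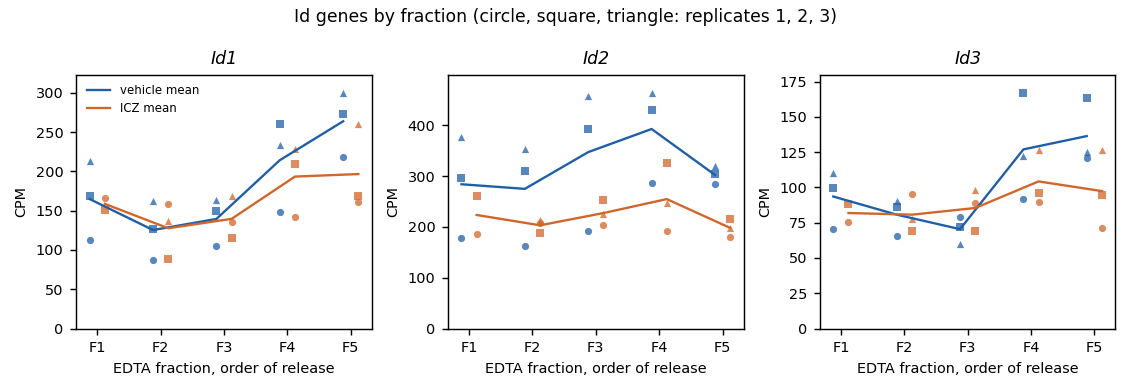
CPM of Id1, Id2 and Id3 in each library by EDTA fraction, with vehicle in blue, ICZ in orange, one symbol per replicate, and lines through the means (2 mice in F1 of ICZ). Id1 and Id3 are highest in F5 of vehicle mice on average, Id2 peaks in F4, and the ICZ mean of Id2 lies below the vehicle mean in all 5 fractions.

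Smad7, on chromosome 18, was highest in F1 of every vehicle mouse, at 72.8, 96.4 and 94.2 CPM. It was at 57.0, 64.2 and 63.7 CPM in F2 and at 44.5, 45.0 and 41.1 CPM in F4. Neither F2 nor F4 overlapped F1. F5, at 51.7, 67.3 and 39.0 CPM, was more scattered. Smad7 fell by 0.73 ± 0.16 on the log2 scale from F1 to F5 (SE, edgeR adjusted p = 0.00269), in 3 of 3 mice. Without vehicle replicate 3 it was -0.49 (adjusted p = 0.105). Its closest profiles were H2-Bl, Zcchc6 and Apol9a, each at r 0.90.

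Smad4, also on chromosome 18, fell less. The vehicle mice had 89.3, 90.7 and 79.8 CPM in F1 and 68.4, 62.1 and 73.5 CPM in F5. The groups did not overlap, and the decrease was 0.34 ± 0.11 on the log2 scale (SE, edgeR adjusted p = 0.0322). The call was lost without any 1 of the 3 mice (adjusted p between 0.0674 and 0.25), and F4 against F1 gave -0.17 (adjusted p = 0.285). Dbi, an acyl-CoA binding protein gene, was most like it (r 0.86).

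Smad6 (chr9:63953076-64022059, minus strand) was sparse, with 23 to 97 reads per library. In vehicle mice it had 13.3, 11.4 and 11.7 CPM in F1 and 4.12, 12.8 and 5.35 CPM in F5. Replicates 1 and 3 were low in F5 and replicate 2 was not. The difference was -0.75 ± 0.34 on the log2 scale (SE, edgeR adjusted p = 0.109), and without replicate 2 it was -1.39 (adjusted p = 0.0267). Of the 8 alternatives, leaving out replicate 2 was not the only one in which Smad6 was called.

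The receptor genes varied little. Bmpr1a (chr14:34410734-34503341, minus strand), the type I receptor, was at 88.6, 102 and 84.3 CPM in F1 of vehicle mice and 84.3, 86.3 and 69.9 CPM in F5, which overlap. Bmpr2 (chr1:59763400-59879014, plus strand), the type II receptor, was at 37.1, 33.9 and 32.8 CPM in F1 and 29.4, 29.4 and 25.6 CPM in F5, which do not. Neither passed in edgeR's test, with differences of -0.19 ± 0.13 and -0.29 ± 0.13 on the log2 scale (SE, adjusted p = 0.291 and 0.103). Exons of Bmpr1a overlap the antisense gene Gm17110, and since the strand setting of the counting is not given in the sources used here, their reads cannot be told apart.

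Bmp2 (chr2:133552159-133562885, plus strand), a ligand, had 12.5, 12.4 and 13.3 CPM in F1 of vehicle mice and 10.7, 23.4 and 8.03 CPM in F5. Replicate 2 alone was high in F5. The difference was 0.12 ± 0.28 on the log2 scale (SE, edgeR adjusted p = 0.79), and it was -0.48 without replicate 2 (adjusted p = 0.255). Bmp8b (chr4:123105165-123132099, plus strand), another ligand, was close to undetected: 0 to 13 reads per library, and 0 in 5 of 29. Its exons overlap Ppie and Gm17244 on the other strand, so without a known strand setting their reads cannot be told apart. Its near copy Bmp8a shares 82.8% of aligned transcript bases, but 0% of the 20-base words of the last 300 bases, where libraries of this kind are read.

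**Figure D2:**
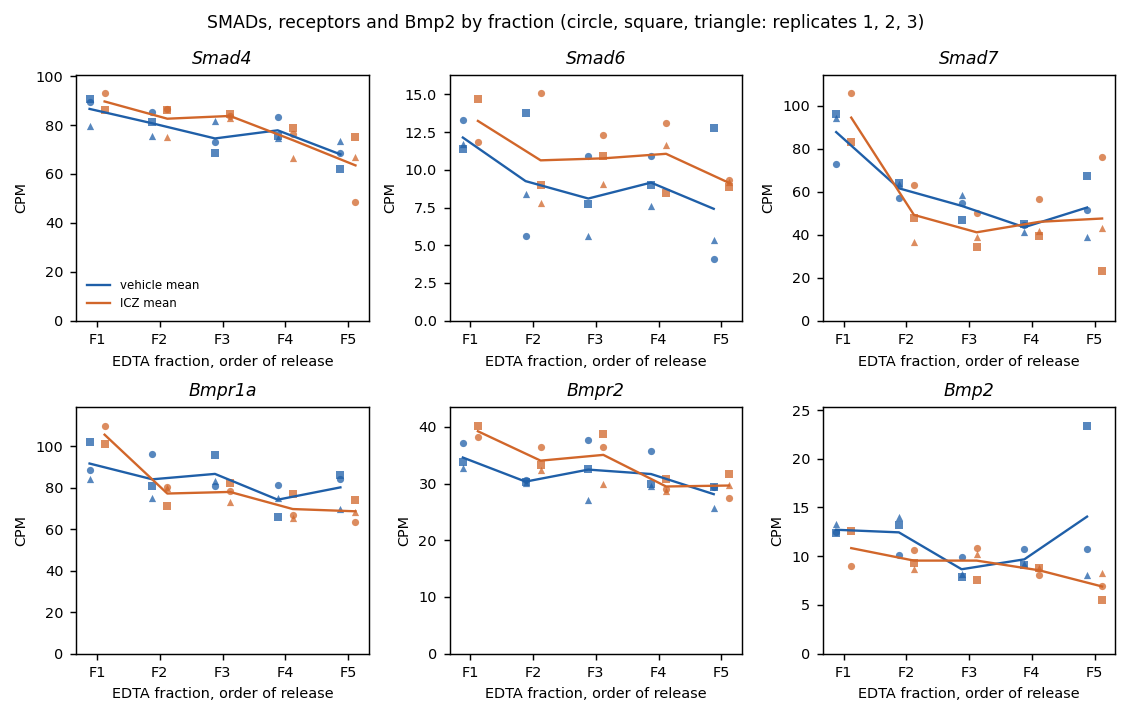
CPM of 3 SMAD genes, 2 receptor genes and Bmp2 in each library by EDTA fraction, with vehicle in blue, ICZ in orange, one symbol per replicate, and lines through the means (2 mice in F1 of ICZ). Smad7 is highest in F1 of both treatments on average, and the single high Bmp2 value is F5 of vehicle replicate 2 at 23.4 CPM.

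In ICZ mice, Smad7, Smad4, Bmpr1a and Bmp2 fell from F1 to F5, 4 of 10 tested, with 16% of all 13328 genes lower. None of the 10 was higher (16.5% of all genes were), by edgeR's quasi-likelihood test. At an unadjusted p below 0.05, 5 of the 10 differed, Bmpr2 being the other, as did 5708 of all 13328 genes. DESeq2 called 3 of the 10, without Bmp2, and 3826 of all genes. F1 rests on 2 mice here.

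Bmpr1a had 110 and 101 CPM in F1 of ICZ replicates 1 and 2, and 63.5, 73.9 and 68.5 CPM in F5 of replicates 1 to 3. All F5 libraries lay well below both F1 libraries. Bmpr1a fell by 0.59 ± 0.12 on the log2 scale (SE, edgeR adjusted p = 0.00132). Smad7 had 106 and 83.0 CPM in F1 and 76.1, 23.3 and 43.4 CPM in F5, without overlap but with a wide spread. It fell by 0.99 ± 0.26 (SE, adjusted p = 0.0101), and without ICZ replicate 2 the value was -0.53 (adjusted p = 0.127).

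Smad4 had 93.2 and 86.1 CPM in F1 of ICZ mice and 48.6, 75.1 and 66.9 CPM in F5. It fell by 0.45 ± 0.14 on the log2 scale (SE, edgeR adjusted p = 0.017), and without ICZ replicate 1 it was -0.23 (adjusted p = 0.235). Bmp2 had 9.02 and 12.6 CPM in F1 and 6.94, 5.45 and 8.27 CPM in F5, the lowest fraction of every ICZ mouse. It fell by 0.71 ± 0.26 (SE, edgeR adjusted p = 0.044), and without ICZ replicate 2 it was -0.18 (adjusted p = 0.795). With 1 of these mice left out, F1 holds a lone library that is assumed to vary like the other groups.

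Bmpr2 had 38.2 and 40.2 CPM in F1 of ICZ mice and 27.5, 31.7 and 29.8 CPM in F5, which do not overlap. Its difference was -0.34 ± 0.14 on the log2 scale (SE, edgeR adjusted p = 0.0685), and it was called without the mouse as a block (-0.39, adjusted p = 0.0459) and in F4 against F1 (-0.39, adjusted p = 0.0441). Id2 differed by -0.15 ± 0.15 and Smad6 by -0.47 ± 0.25 (SE, edgeR adjusted p = 0.473 and 0.167). Bmp8b had 19 reads in F1, 3 in F4 and 18 in F5 of ICZ mice. Its F5 against F1 difference was -0.51 ± 0.84 (SE, edgeR adjusted p = 0.683), and F4 against F1 was called (-3.16, adjusted p = 0.0409) on those few reads.

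Id1 and Id3 did not pass in ICZ mice. Id1 had 166 and 151 CPM in F1 and 160, 169 and 260 CPM in F5, and Id3 had 75.4 and 88.4 CPM in F1 and 71.0, 94.4 and 127 CPM in F5. The groups overlap for both, and the fitted differences were 0.16 ± 0.20 and 0.13 ± 0.18 on the log2 scale (SE, edgeR adjusted p = 0.572 and 0.597). The 10 listed stroma markers summed to 32.8 to 153 CPM in F5 of ICZ mice (median 34.0) and to 9.45 to 9.83 CPM in F1. Only 6 of the 10 had enough reads to be tested, and all 6 were called higher in F5. The low-count filter can keep a gene through its F5 reads alone, so that count decides nothing. The part of stroma markers in the Id1 and Id3 values was not tested. Leaving out the F5 library of ICZ replicate 1 gave 0.24 for Id1 and 0.29 for Id3 (adjusted p = 0.541 and 0.178).

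Whether the ICZ effect differed between fractions was tested directly, with 4 terms over all 29 libraries and the mouse as a block. None of the 10 genes passed in edgeR's test, and 0.00711% of 14067 genes did. The adjusted p of the 10 lay between 0.927 and 0.993. At an unadjusted p below 0.05 the count was also 0, with 735 of all 14067 genes. DESeq2 called 0 of the 10 and 4 of all genes. With the F5 minus F1 term alone, an alternative added after seeing the data, the difference (ICZ minus vehicle) was -0.55 ± 0.23 for Id1, -0.39 ± 0.18 for Bmpr1a and -0.82 ± 0.41 for Bmp2 on the log2 scale (SE), each with an edgeR adjusted p of 1. The course of these genes over fractions was thus not shown to differ between treatments.

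**Figure D3:**
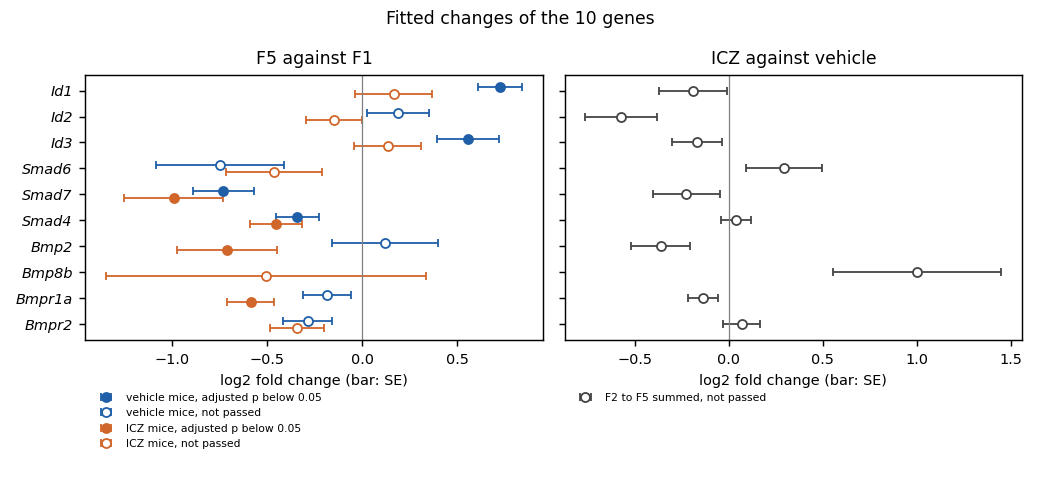
Log2 fold change with SE (bars) of F5 against F1 in vehicle (blue) and ICZ mice (orange), left, and of ICZ against vehicle in F2 to F5 summed, right, from edgeR; filled points have an adjusted p below 0.05. On the left, Id1 and Id3 pass upward in vehicle mice, Smad7 and Smad4 pass downward in both, and Bmpr1a and Bmp2 pass downward in ICZ mice; on the right no gene passes.

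ICZ against vehicle was compared on counts of F2 to F5 summed within each of the 6 mice; F1 was left out because that fraction of ICZ replicate 3 was not analysed here. The fitted values were negative for 6 of the 10 genes (the 3 Id genes, Bmp2, Smad7 and Bmpr1a) and positive for 4. The value for Id2 was -0.57 on the log2 scale. None of the 10 genes passed in edgeR's test, where 0% of all 15497 genes were called. At an unadjusted p below 0.05 there were 2 of the 10, Id2 and Bmp2, and 886 of all genes, and DESeq2 called 0 of the 10 and 13 of all genes. With the replicate number as a block, 0 of the 10 and 231 of all genes were called. The groups of mice did not overlap for 2 of 10, Bmp2 and Bmp8b, against 11.4% of all genes. The exact two-sided permutation test cannot go below 0.1 with 3 mice against 3.

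Id2 was at 231, 368 and 402 CPM in the vehicle mice and at 200, 247 and 226 CPM in the ICZ mice. Vehicle replicates 2 and 3 stood above all ICZ mice, and vehicle replicate 1 lay within the ICZ range. The means were 334 ± 90.3 and 224 ± 23.7 CPM (SD, n = 3 mice each), and the difference was -0.57 ± 0.19 on the log2 scale (SE, edgeR adjusted p = 0.846, exact permutation p = 0.2). With the replicate number as a block the adjusted p was 0.118, and over the other alternatives no call was made. Leukocyte markers with F2 to F5 added summed to 279 to 433 CPM in ICZ mice and 485 to 986 CPM in vehicle mice. Of the tested values, 13 of 13 were negative and none was called. Much of the 986 CPM, from vehicle replicate 1, came from the MHC class II genes H2-Ab1 (310 CPM), Cd74 (290 CPM) and H2-Aa (125 CPM). That mouse had the lowest Id2 of the vehicle mice. Cd3g and Gzmb were each highest in ICZ replicate 1, at 9.74 CPM. By fraction, 8, 13, 11, 8 and 5 of 13 leukocyte markers were negative from F1 to F5, with a median of -1.39 in F2 and 0.19 in F5, where the Id2 groups did not overlap. The part of these markers in the Id2 values was not tested.

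By fraction the Id2 difference was -0.34 in F1, -0.49 in F2, -0.63 in F3, -0.60 in F4 and -0.57 in F5 on the log2 scale, lower in 5 of 5 fractions that come from the same mice. In F5 the vehicle mice had 284, 303 and 320 CPM and the ICZ mice 181, 215 and 199 CPM, without overlap, and edgeR gave -0.57 ± 0.15 (SE, unadjusted p = 0.0044, adjusted p = 1). In F3, without vehicle replicate 1, Id2 was called (-0.92, adjusted p = 0.000285), and in F4 it was called with no filter on low counts (-0.62, adjusted p = 0.00507). Lnx1 (r 0.76), Sema4g (0.76) and Chordc1 (0.74) were most like Id2 over the 29 libraries.

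Bmp2 was at 10.6, 13.6 and 10.0 CPM in the vehicle mice and 9.44, 7.77 and 9.29 CPM in the ICZ mice. Every ICZ mouse was lower than every vehicle mouse, by 0.36 ± 0.16 on the log2 scale (SE, edgeR adjusted p = 0.846, exact permutation p = 0.1). Bmp8b had 26 reads in the vehicle mice together and 48 in the ICZ mice. On TMM-scaled library sizes the ratio was 1.98 (exact 95% interval 1.21 to 3.33, counting error only). Its mice did not overlap either, at 0.345, 0.438 and 0.189 CPM against 0.882, 0.628 and 0.469 CPM (edgeR adjusted p = 0.846). In F2 alone there were 3 reads against 20, a ratio of 6.76 (2.01 to 35.5), and in F1 13 against 19, a ratio of 2.69 (1.26 to 5.93), while F3 had 11 against 7 reads.

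The other members differed by less. Id1 was at 140, 207 and 220 CPM in vehicle mice and 149, 150 and 198 CPM in ICZ mice, and Id3 at 90.3, 125 and 102 against 88.8, 84.9 and 107 CPM, both overlapping. The early response list summed to 1987 to 3497 CPM in vehicle mice and 1324 to 2596 CPM in ICZ mice, with 17 of 17 values negative and none called, and its part in the Id1 and Id3 values was not tested. Smad7 had 53.4, 56.6 and 51.2 CPM against 60.2, 36.2 and 40.9 CPM, with ICZ replicate 1 above all vehicle mice. The fitted differences were -0.19 for Id1, -0.17 for Id3, -0.23 for Smad7, 0.29 for Smad6, 0.04 for Smad4, -0.14 for Bmpr1a and 0.07 for Bmpr2 on the log2 scale (edgeR adjusted p between 0.87 and 0.966).

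**Figure D4:**
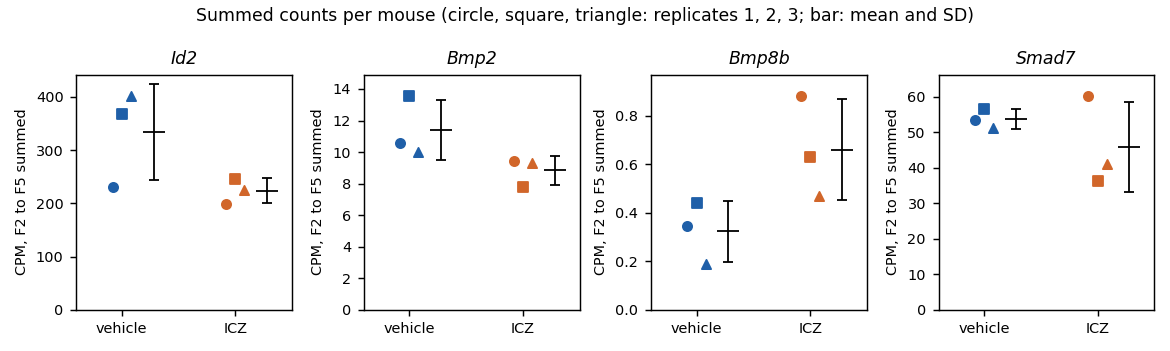
CPM of Id2, Bmp2, Bmp8b and Smad7 in counts of F2 to F5 summed per mouse, for 3 vehicle (blue) and 3 ICZ mice (orange), with mean and SD as bars beside the points. Id2 and Smad7 overlap between treatments, while the ICZ mice lie below the vehicle mice for Bmp2 and above them for Bmp8b.

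Within single fractions none of the 9 tested genes passed in edgeR's test. The share of all genes called was 0.0324% in F1, 0.0165% in F2, 0.00815% in F3, 0% in F4 and 0% in F5. At an unadjusted p below 0.05 there were 0 in F1, 1 in F2 and 1 in F3 (Smad7, lower). There were 1 in F4 (Id2, lower) and 2 in F5 (Id2 and Bmp2, lower). Over all genes that count was 542 of 12335 in F1, 1455 of 12115 in F2 and 1122 of 12268 in F3. It was 349 of 12092 in F4 and 342 of 12244 in F5. DESeq2 called 0 of the 9 in each, and 24, 124, 20, 4 and 5 of all genes from F1 to F5. With the replicate number as a block 0 of the 9 passed in each fraction, and the calls over all genes were 45, 221, 23, 5 and 8 from F1 to F5. From F1 to F5 the fitted differences of Id1 were -0.05, -0.03, -0.02, -0.12 and -0.38 on the log2 scale, and those of Id3 were -0.18, -0.05, 0.26, -0.26 and -0.45. Those of Smad6 were 0.15, 0.13, 0.38, 0.31 and 0.33, positive in each fraction, and those of Smad7 were 0.12, -0.38, -0.39, 0.11 and -0.08. Smad4 and Bmpr2 lay between -0.08 and 0.20 and Bmpr1a between -0.18 and 0.22, while Bmp2 was at -0.21, -0.44, 0.13, -0.15 and -0.996. The values of the Id genes were thus furthest below 0 in F3 for Id2 and in F5 for Id1 and Id3, and none passed the test. Smad7 had 57.0, 64.2 and 63.7 CPM in F2 of vehicle mice against 63.1, 48.0 and 36.7 CPM in ICZ mice, which overlap.

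Groups that did not overlap were 1 of the 9 tested genes in each fraction. Bmp8b, too sparse to be tested in single fractions, did not overlap either in F1 (0.439 to 0.792 against 0.936 to 2.79 CPM) and F2 (0 to 0.284 against 0.621 to 1.80 CPM). In F1 (19.9% of all tested genes) and in F2 (16.9%) this was Bmpr2, higher with ICZ, at 32.8 to 37.1 against 38.2 to 40.2 CPM and at 30.2 to 30.6 against 32.4 to 36.5 CPM. In F3 (14.9%) it was Smad4, at 68.7 to 81.7 against 83.0 to 84.5 CPM. In F4 (9.11%) it was Bmp2, lower with ICZ, at 9.13 to 10.7 against 8.09 to 8.79 CPM, and in F5 (7.99%) it was Id2. These shares are close to the background of all genes.

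Of 106 other listed genes of the pathway, 53 could be tested in vehicle mice. From F1 to F5, 5 of the 53 rose and 6 fell, while 14.9% of all tested genes rose and 13.2% fell. The median difference of the 53 was -0.12 on the log2 scale, against 0.02 over all genes tested and -0.19 over the 9 members. Among ligands, Gdf15 (2.55 ± 0.32 on the log2 scale, SE), Bmp3 (1.11 ± 0.20) and Bmp7 (1.55 ± 0.38) rose, and Bmp8a fell (-1.28 ± 0.38), 4 of 6 tested (edgeR adjusted p at most 0.0261). GDF15 is a stress-induced cytokine of this family. Among receptors, Acvr1c, an activin receptor-like kinase gene, rose (0.93 ± 0.20), 1 of 9 tested. Tcf3, which encodes an E protein that Id proteins bind, rose by 0.79 ± 0.18, 1 of 3 tested (adjusted p = 0.00355).

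Of 21 tested SMAD regulators 3 fell and none rose in vehicle mice: Ppm1a (-0.50 ± 0.11 on the log2 scale, SE), a phosphatase that acts on SMADs, Xiap (-0.49 ± 0.15) and Skil (-0.44 ± 0.14), a SMAD corepressor. Of 5 tested extracellular modulators Bmp1, a protease that cleaves chordin, and Crim1 fell, by 1.13 ± 0.26 and 0.64 ± 0.17. None of the 4 tested receptor-regulated SMADs passed. In ICZ mice 54 of the other pathway genes were tested, with 4 higher and 11 lower, while 16.5% of all tested genes were higher and 16% lower. In ICZ against vehicle, summed, 0 of 58 tested passed in edgeR's test, with 35 positive and 23 negative values.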

How the data were processed

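The authors deposited 1 table of whole-number read counts per gene, not normalized, from 3′ end (QuantSeq) libraries, per the labels' protocols. BWA 0.7.17-r1188, HTSeq 0.11.2, SAMtools 1.10, FastQC 0.11.2 and the build GRCm38.p6 (mm10) are named in the submitters' processing notes; for annotation release, molecular identifiers and strand setting, the record is "not given in the sources used here". The 5 summary lines, 38.4% to 48.4% of counted reads, and 1 column of no known group were not used. Gene coordinates are from GENCODE on GRCm38 and promoters from RefSeq, counted from 1.

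Counts were tested with edgeR 4.0.16 in R 4.3.3 (filterByExpr, TMM, robust quasi-likelihood F test, Benjamini-Hochberg at 0.05 over all tested genes), and each SE was obtained by dividing the size of the log2 fold change by √F. Fraction tests had the mouse as a block, and ICZ tests had none. Alternatives were DESeq2 1.42.0, limma 3.58.1 voom, other size factors, no low-count filter, a replicate block and leaving out each mouse. Deviations of same-numbered vehicle and ICZ mice correlated at 0.381, 0.248 and 0.472 over 15497 genes. Mice with different numbers correlated at -0.423 to -0.0249. The labels do not say that the numbers pair the mice. The reported ICZ tests therefore took no pairing, and the replicate block was run as an alternative. The replicates are labelled as biological. Depth was 4359673 to 7819837 gene reads. The fitting was tested on simulated counts with large changes and no differences between mice, so that test does not cover smaller changes or spread between mice.

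The members and lists were chosen with earlier results of these data known. All 10 members are given in each comparison, Bmp8b by its reads where it was too sparse to be tested, other pathway genes by list with up to 3 examples per direction of smallest p, and likeness by the 3 highest Pearson correlations of log2 CPM (prior count 2) among genes of at least 5 CPM.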

Additional observations from a re-analysis of the deposited data

How the results depend on the processing

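Of 881 member values recomputed under alternatives, 807 stayed the same, 23 lost a call, 10 gained one and 41 changed sign. The same means that the side of the threshold was kept, and also the direction where the test has one. The tests across vehicle fractions and of the ICZ effect between fractions join several terms and have no direction. Across the vehicle fractions 3 members were called, 2 with no replicate block and 2 to 4 with a mouse left out. In F5 against F1 of vehicle mice, 4 members were called, 2 with no replicate block and 2 to 3 with a mouse left out. There Id2 (F4 against F1) and Smad6 (without vehicle replicate 2 and in another setting) gained a call. In F5 against F1 of ICZ mice, 4 were called and 1 to 3 with a mouse left out, while Bmpr2 (no replicate block, F4 against F1) and Bmp8b (F4 against F1, -3.16) gained a call. For ICZ against vehicle, 0 were called in every setting except F3 (0 to 1 with a mouse left out, Id2 without vehicle replicate 1) and F4 (1, Id2, with no filter on low counts). The replicate block, which pairs mice by number, changed no member call in the ICZ comparisons (Id2 summed -0.54, adjusted p = 0.118). Over all genes, the calls ran from 0 to 231 in the summed comparison (0 as reported), 0 to 331 between fractions (1), 1 to 57 in F1 (4), 0 to 351 in F2 (2), 0 to 498 in F3 (1), 0 to 26 in F4 (0) and 0 to 37 in F5 (0). They ran from 260 to 3872 across vehicle fractions (2710), 886 to 4215 in F5 against F1 of vehicle mice (3703) and 1098 to 5404 of ICZ mice (4339). The cause was not tested.

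The following had not passed the test as reported and changed sign in at least 1 setting, and none passed after that change. Ranges are log2 values with each mouse left out in turn and do not cover other settings. In F5 against F1 of vehicle mice, Id2 ranged from -0.13 to 0.40 and Bmp2 ranged from -0.48 to 0.46 and was -0.42 with F4 against F1. In F5 against F1 of ICZ mice, Id2 was 0.16 with F4 against F1 and Bmp8b ranged from -1.41 to 0.029. In the summed ICZ comparison, Smad4 ranged from -0.013 to 0.057. In the ICZ comparison of F1, Id1 ranged from -0.27 to 0.19 and was 0.22 with the replicate block, Smad6 ranged from -0.021 to 0.27 and Smad7 ranged from -0.089 to 0.29. There also, Smad4 ranged from -0.014 to 0.12. In the ICZ comparison of F2, Id1 ranged from -0.24 to 0.22, Id3 ranged from -0.18 to 0.053 and Smad6 ranged from -0.19 to 0.51. There also, Smad4 ranged from -0.049 to 0.038 and was 0.0079 with no filter on low counts. In the ICZ comparison of F3, Id1 ranged from -0.18 to 0.11 and was 0.00023 with no filter on low counts and Bmpr2 ranged from -0.024 to 0.21. In the ICZ comparison of F4, Id1 ranged from -0.32 to 0.054, Smad7 ranged from -0.078 to 0.22 and Smad4 ranged from -0.090 to 0.012. There also, Bmpr1a ranged from -0.15 to 0.014 and Bmpr2 ranged from -0.13 to 0.024. In the ICZ comparison of F5, Smad7 ranged from -0.67 to 0.29 and Smad4 ranged from -0.15 to 0.047. Depth limits Bmp8b, with at most 13 reads per library, and Smad6, with 23 to 97.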
